A study of Mus musculus with 16 samples.

Results

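A set of 9 genes that mark mature neutrophils were followed in RNA from the liver metastases of 16 mice, and all 9 of the 9 passed the low-count filter, among 13968 that passed of 21959 genes listed. They are S100a8 and S100a9, Csf3r, Retnlg, Clec4d, G0s2, Acod1, Trem1 and Ly6g, and they were chosen by name from the gene tables, with earlier results of these data known. The mice were wild-type male C57BL/6 animals, injected at 6 weeks of age with MC38 cells, a mouse colon adenocarcinoma line, into a part of the spleen from which the cells seed the liver. All mice carried this graft. The 4 control mice received PBS, 4 received SB525334 (20 mg/kg by daily gavage), an inhibitor of the type I TGF-β receptor ALK5, 4 received KN046 (10 mg/kg, intraperitoneal, 2 times a week), a bispecific antibody against PD-L1 and CTLA-4, and 4 received both, called the combination here.

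Neutrophils are short-lived granulocytes made in the bone marrow under the control of granulocyte colony-stimulating factor. Granule proteins are transcribed early, in promyelocytes and myelocytes, whereas cytoplasmic S100 proteins, chemokine and pattern receptors and Ly6G accumulate as the cells mature and leave the marrow. In tumors, neutrophils and their immature relatives can suppress T cells or harm tumor cells, and TGF-β is among the signals reported to shape them. Several of the 9 genes, Csf3r, Clec4d, Acod1 and Trem1 among them, are also transcribed by monocytes and macrophages, and G0s2 by hepatocytes and adipocytes.

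The upstream regions of S100a8, S100a9 and Ly6g are shown first because these genes, with Retnlg, had the largest fitted falls in the SB525334 group. Each is the 250 bases before the canonical start in GENCODE M39, read from genome build GRCm39 on the strand of the gene, and none of the 3 overlaps an annotated exon. S100a8 lies on chr3:90576035-90576284 (plus strand), S100a9 on chr3:90603072-90603321 (minus strand) and Ly6g on chr15:75026839-75027088 (plus strand). Capitals mark matches on either strand to a C/EBP motif (TTGCNNAA), a PU.1 motif (GAGGAAGT) or a TATA box (TATAAA).
S100a8: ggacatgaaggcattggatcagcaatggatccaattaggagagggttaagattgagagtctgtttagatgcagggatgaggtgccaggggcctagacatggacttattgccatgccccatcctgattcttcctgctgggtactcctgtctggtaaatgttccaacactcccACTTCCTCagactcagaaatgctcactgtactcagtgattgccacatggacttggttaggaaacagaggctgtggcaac
S100a9: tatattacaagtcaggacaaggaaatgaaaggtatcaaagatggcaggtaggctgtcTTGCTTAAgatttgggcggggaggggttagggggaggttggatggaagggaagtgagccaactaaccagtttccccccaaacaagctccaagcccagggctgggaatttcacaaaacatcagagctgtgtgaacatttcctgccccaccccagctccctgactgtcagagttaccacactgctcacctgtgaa
Ly6g: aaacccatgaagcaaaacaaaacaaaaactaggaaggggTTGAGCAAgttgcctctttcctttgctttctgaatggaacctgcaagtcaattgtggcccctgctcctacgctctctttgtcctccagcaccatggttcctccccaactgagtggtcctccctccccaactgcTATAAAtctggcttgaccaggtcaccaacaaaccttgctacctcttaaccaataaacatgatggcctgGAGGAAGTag
No 2 of these matches overlap. The PU.1 letters stood at -79 to -72 from the start of S100a8, on the opposite strand, and at -10 to -3 of Ly6g. The C/EBP letters stood at -193 to -186 of S100a9 and, on the opposite strand, at -211 to -204 of Ly6g, and Ly6g also had the TATA box letters at -78 to -73. Over 21770 upstream regions of the same length, 9.34% held the C/EBP letters, 2.08% the PU.1 letters and 11.9% the TATA box letters, against 2, 2 and 1 of the 9 members. A match is a description of letters and not a site of binding.

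Total counts per mouse lay between 18368994 and 23877131. Levels are given as CPM, the usual read count scaled to library size, with edgeR's TMM factors applied. The label of the tissue was liver metastasis, and the summed CPM of 14 hepatocyte genes was 15757.5 to 18504.9 in control mice, 9456.7 to 19520.3 with KN046, 419.4 to 2030.0 with SB525334 and 14.3 to 23.6 with the combination. Hepatocyte RNA was thus lower in every mouse given SB525334, alone or in the combination, and lowest with the combination. In comparisons that involve these groups, treatment and tissue makeup cannot be told apart. The control and KN046 ranges overlapped, with medians of 17181.5 and 16754.8, and the part of tissue makeup in the KN046 comparison with control was not tested. Control mouse 1 lay nearest to control mouse 2, and control mouse 3 to control mouse 4: the median chi-square per gene was 1.25 and 0.956 within these pairs and 2.82 or more between any others of 1 group. Sampling noise alone did not account for the differences within the pairs, since 24.8% and 18.1% of genes exceeded the 95% point of the chi-square distribution. In bulk RNA, fewer neutrophils and less RNA per neutrophil cannot be told apart. Combination mouse 4 had the highest level of the 4 combination mice for all 9 members, whereas 17.9% of all tested genes were highest in that mouse, so tests that include the combination are also given without that mouse. The mouse was thus picked by the levels of the members themselves, and leaving it out lowers their combination means by construction. Tests without it show how far a result depends on that mouse and are not independent support.

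S100a8 and S100a9 encode the subunits of calprotectin, the most abundant cytoplasmic protein of neutrophils, which binds metal ions and signals through pattern receptors. Per kilobase of transcript, which allows levels to be compared between genes, they were the highest members in control mice, at 94.0 ± 12.9 (S100a9) and 56.6 ± 10.7 (S100a8) CPM per kilobase (SD, n = 4). Retnlg, Clec4d and Csf3r followed at 5.54 ± 0.256, 5.01 ± 0.547 and 4.92 ± 1.8, and their ranges overlapped. Acod1 (2.56 ± 0.913), G0s2 (2.39 ± 0.894) and Trem1 (2.06 ± 0.564) overlapped with each other, and Acod1 with Csf3r, and Ly6g was lowest at 0.783 ± 0.138. Both S100 genes and Ly6g stood apart from their neighbours in this order: the lowest control mouse had 79.9 for S100a9 where the highest had 69.3 for S100a8, and the highest had 0.969 for Ly6g where the lowest had 1.39 for Trem1 and G0s2.

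In SB525334 mice the order changed: Clec4d led at 4.3 ± 1.24 CPM per kilobase, followed by S100a9 at 3.59 ± 5.46, Csf3r at 2.01 ± 0.148, Trem1 at 1.65 ± 0.75 and S100a8 at 1.55 ± 2.48. G0s2 (1.1 ± 0.657), Acod1 (1.07 ± 0.536), Retnlg (0.143 ± 0.24) and Ly6g (0 in every mouse) came last. The ranges of neighbours in this order overlapped, down to Retnlg and Ly6g, which both had mice at 0.

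S100a8 was 23.7, 23.2, 30.3 and 34.1 CPM in control mice 1 to 4, 0.0904, 0, 2.58 and 0.388 with SB525334, 1.87, 1.6, 3.63 and 1.4 with KN046, and 1.34, 3.97, 0.328 and 47.2 with the combination. Every SB525334 and KN046 mouse was below every control mouse, and combination mouse 4 was above all of them while combination mice 1 to 3 were below. S100a9 was 50.2, 45.7, 56.8 and 62.5 CPM in control mice, 0.859, 0.159, 6.71 and 0.474 with SB525334, 4.8, 2.58, 6.76 and 4.31 with KN046, and 1.95, 6.4, 0.491 and 81.3 with the combination. Again all SB525334 and KN046 mice were below every control mouse and combination mouse 4 was above them, and SB525334 mouse 3 was the highest of its group for both genes.

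Retnlg, a resistin-like secreted protein of mature granulocytes, was 3.19, 3.27, 3.55 and 3.34 CPM in control mice, 0, 0, 0.301 and 0.0431 with SB525334, 0.746, 1.07, 1.56 and 1.09 with KN046, and 0.462, 0.828, 0.0546 and 2.73 with the combination. All 12 treated mice were below every control mouse. Ly6g, the surface protein bound by the antibody that depletes mouse neutrophils, had 21, 14, 15 and 12 reads in control mice, 0 in all 4 SB525334 mice, 2, 0, 1 and 1 with KN046, and 2, 5, 0 and 29 with the combination. Its reads in KN046 mice and in combination mice 1 to 3 did not reach those of any control mouse, and only combination mouse 4 exceeded them. Of the 4 groups only the control group had all mice above the count of the low-count filter for Ly6g, and only the control and KN046 groups did for S100a8, S100a9 and Retnlg.

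Csf3r, the receptor for granulocyte colony-stimulating factor, was 23.1, 22.2, 10.8 and 13 CPM in control mice, 6.37, 7.64, 7.1 and 7.02 with SB525334, 7.52, 11.2, 10 and 7.64 with KN046, and 8.32, 4.41, 3.71 and 9.99 with the combination. Control mice 1 and 2 were higher than mice 3 and 4, the same pairs that were similar across all genes. All SB525334 and combination mice were below every control mouse, and KN046 mouse 2 overlapped the lowest control mouse.

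Trem1, an activating receptor that amplifies inflammatory signals, was 7.57, 7.62, 5.38 and 4.18 CPM in control mice, 3.44, 4.14, 8.31 and 3.92 with SB525334, 1.71, 4.67, 3.24 and 5.82 with KN046, and 6.88, 4.03, 5.62 and 9.29 with the combination. Its 4 groups overlapped throughout. Clec4d, a C-type lectin receptor for fungal and mycobacterial glycolipids, was 7.26, 6.63, 7.1 and 5.64 CPM in control mice, 6.96, 3.42, 6.89 and 5.6 with SB525334, 6.08, 6.56, 4.36 and 3.12 with KN046, and 7.29, 14.3, 8.24 and 19.3 with the combination. It was the one member whose combination mice were all above every mouse of the other groups, though the lowest of them (7.29) was barely above the highest control mouse (7.26).

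Acod1, which makes itaconate from a citric acid cycle intermediate, was 9.14, 8.28, 4.11 and 5.28 CPM in control mice, 2.53, 1.19, 2.88 and 4.61 with SB525334, 0.64, 1.46, 0.559 and 2.65 with KN046, and 4.42, 2.48, 3.71 and 12.2 with the combination. KN046 mice were all below every control mouse, and the SB525334 and combination ranges overlapped the control range. G0s2, an inhibitor of adipose triglyceride lipase, was 2.36, 3.22, 5.12 and 5.54 CPM in control mice, 1.27, 1.15, 3.53 and 1.55 with SB525334, 9.11, 1.85, 3.74 and 2.96 with KN046, and 0.822, 1.16, 0.873 and 1.74 with the combination. Combination mice were all below every control mouse and every KN046 mouse. G0s2 shares 119 exon bases with Lamb3, Csf3r 235 with Gm32908, Acod1 247 with Gm41235 and Trem1 823 with an antisense RNA gene in GENCODE M39, each on the opposite strand, and reads there cannot be told apart because the strand setting of the counting is not given in the sources used here.

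**Figure D1:**
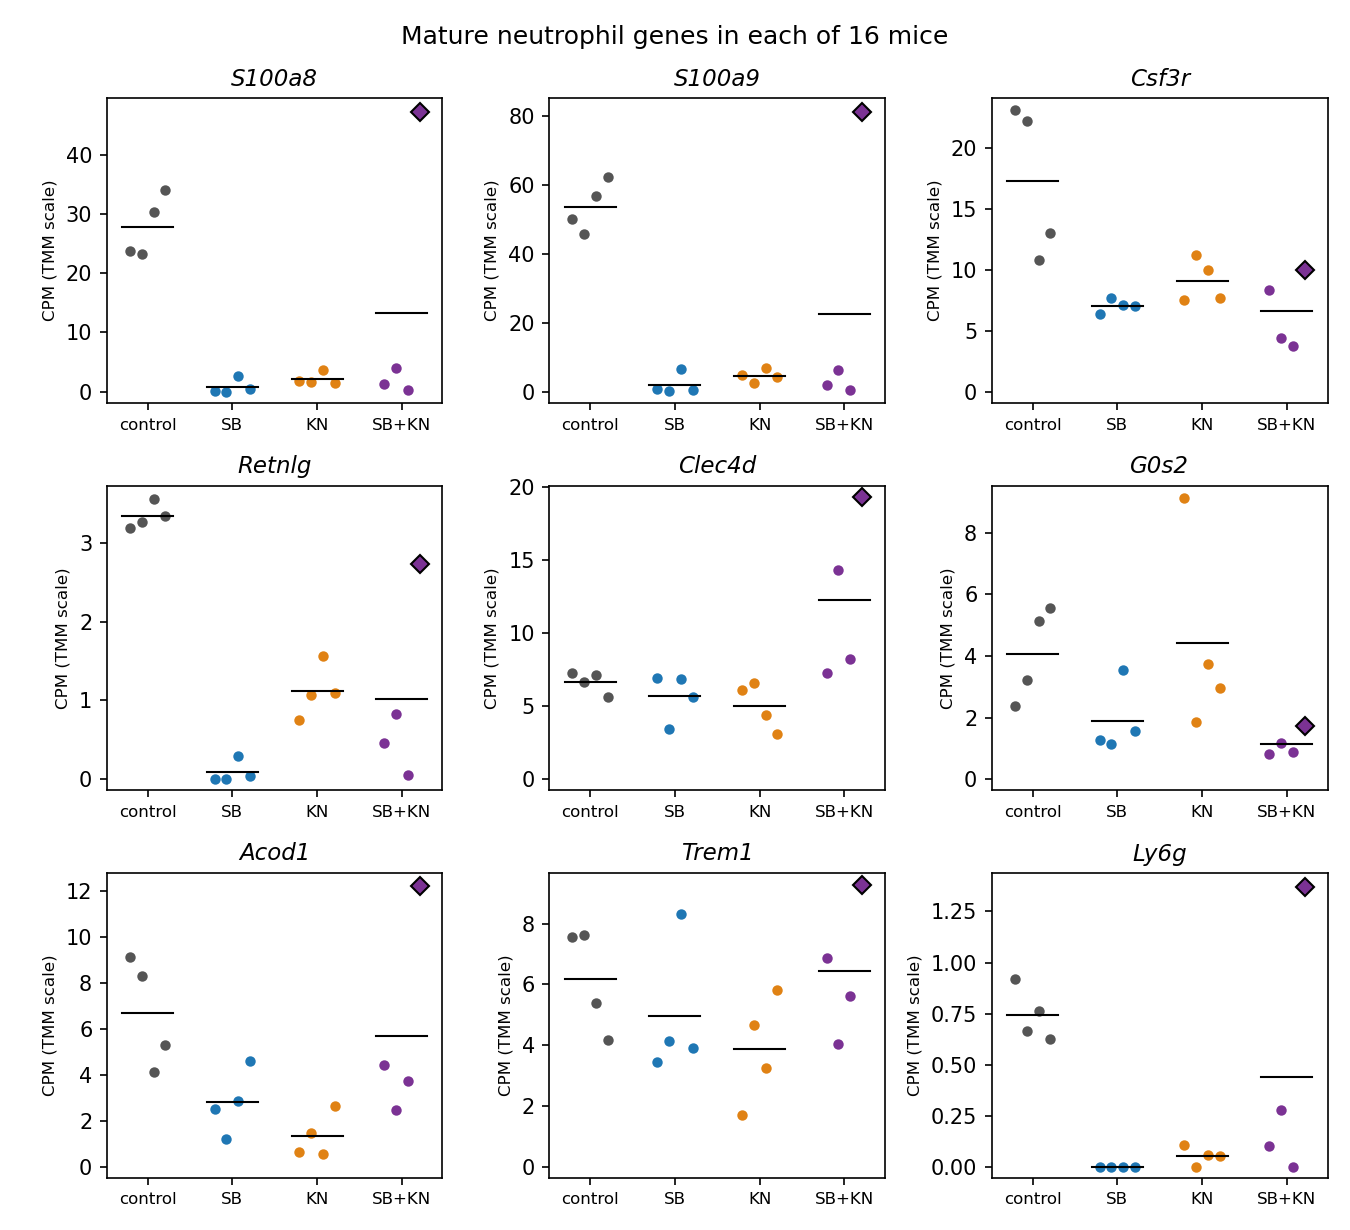
CPM on the TMM scale (vertical axis, linear) of the 9 genes in each mouse by group, with the group mean as a line. SB is SB525334, KN is KN046, SB+KN is the combination, and the diamond is combination mouse 4, at 47.2 CPM for S100a8 where the other 3 combination mice had at most 3.97.

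SB525334 was compared with control to ask what inhibition of the TGF-β receptor did to the tumor tissue. In this comparison 5 of 9 members fell by edgeR's quasi-likelihood test with Benjamini-Hochberg adjustment over all genes, where 9.22% of all tested genes fell and 0.394% rose, and no member rose. S100a8 was 36.3-fold lower (log2 fold change -5.18 ± 1.19 SE, adjusted p = 0.00624) and S100a9 26.2-fold lower (-4.71 ± 1.16, adjusted p = 0.0108). Retnlg was lower by 5.19 ± 0.88 on the log2 scale (adjusted p = 3.6e-04), and the summed control reads were 38.0-fold those of SB525334 per library total (exact 95% counting interval 19.0 to 89.0). Ly6g had 62 reads in control mice and 0 with SB525334, so it was at least 22.8-fold higher in control, against 3 counts over the group, and its adjusted p was 0.00393. Ly6g owed its place past the low-count filter to the control mice, the group in which it was high. Its place among the 5 is thus not free of that choice. Without the filter the same 5 members passed, and with a mean CPM of at least 1 Ly6g was not tested. Csf3r was 2.45-fold lower (-1.30 ± 0.30, adjusted p = 0.00585). SB525334 mouse 3 set the size of several of these values. Without it the fitted log2 differences were -7.41 ± 1.5 for S100a8 (170.1-fold lower, adjusted p = 0.00282), -6.76 ± 1.39 for S100a9 (108.6-fold, 0.00328) and -7.36 ± 1.11 for Retnlg (2.1e-04). Of the 8 Retnlg reads in SB525334 mice 7 were in that mouse, and without it the counting ratio was 228.0 (interval 40.7 to 9060.0). The mice of the 5 genes did not overlap the control mice, as for 13.3% of all tested genes in the lower direction.

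The other 4 members did not pass. G0s2 differed by -1.11 ± 0.47 on the log2 scale (adjusted p = 0.193), Acod1 by -1.26 ± 0.52 (0.177), Trem1 by -0.32 ± 0.36 (0.728) and Clec4d by -0.22 ± 0.31 (0.792). Fitted intervals of 95% reached from -0.89 to 0.45 for Clec4d and from -1.11 to 0.46 for Trem1. All 9 log2 differences were below 0, with a median of -1.3 against 0 over all 13968 genes.

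KN046 was compared with control for the effect of the antibody alone. By the same edgeR test 1 of 9 members fell, Acod1 (5.02-fold lower, log2 fold change -2.33 ± 0.55, adjusted p = 0.0328), where 2.40% of all genes fell and 1.60% rose, and no member rose. DESeq2 called 5 members lower, where it called 8.64% of genes in either direction. Acod1 did not pass when any 1 of the 4 control mice was left out (adjusted p = 0.0568 to 0.071), nor without KN046 mouse 1 (0.11) or mouse 3 (0.0861), with differences of -2.5 to -2.08, nor with each similar control pair summed (0.212). With the 8 mice of this comparison alone, Acod1 did not pass either. S100a8, S100a9, Retnlg and Ly6g then passed, all lower, where 75 genes passed in either direction. Mice did not overlap for 5 members, all lower with KN046 (S100a8, S100a9, Retnlg, Acod1 and Ly6g), against 6.65% of all genes. S100a8 differed by -3.71 ± 1.08 (adjusted p = 0.0619), S100a9 by -3.55 ± 1.08 (0.0719), Csf3r by -0.93 ± 0.29 (0.0779) and Ly6g by -3.68 ± 1.03 (0.0612), all with an unadjusted p of 0.00563 or less. Retnlg was at -1.58 ± 0.67 (0.17), and the other members at -0.68 to 0.12. Control reads of Ly6g were 14.6-fold those of KN046 (interval 5.42 to 55.3) and of Retnlg 3.06-fold (2.39 to 3.95), counting error only.

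Combination mouse 4 entered this KN046 comparison through the shared estimate of spread. Without it the fold change of S100a8 and S100a9 stayed at -3.71 and -3.55, their SE fell to 0.75 and 0.74, and 4 members passed: S100a8 (adjusted p = 0.0218), S100a9 (0.0248), Acod1 (0.0242) and Ly6g (0.0261). All 4 were lower with KN046, where 1.69% of all genes then fell. S100a8 also passed without combination mouse 1 (0.0488) or 3 (0.0464), Ly6g without combination mouse 3 (0.0442), and Csf3r without KN046 mouse 2 (-1.03, 0.0406).

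In the comparison of the combination with control, 2 of 9 members fell, Csf3r (2.61-fold, log2 fold change -1.38 ± 0.30, adjusted p = 0.00307) and G0s2 (3.5-fold, -1.81 ± 0.49, 0.0204), where 9.74% of all genes fell. Mice did not overlap for Csf3r, Retnlg and G0s2 in the lower direction (12.1% of all genes) and for Clec4d in the higher direction (5.32%). S100a8, S100a9, Retnlg and Ly6g were at -1.07 ± 0.95, -1.25 ± 0.97, -1.69 ± 0.67 and -0.72 ± 0.76. Clec4d was at 0.88 ± 0.31 (adjusted p = 0.081). The call for G0s2 was lost without combination mouse 1, 2 or 3 or control mouse 3 or 4 (adjusted p = 0.0541 to 0.0731), with differences of -1.79 to -1.61. Clec4d passed without combination mouse 1 (1.09, 0.0216).

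Without combination mouse 4, 6 members fell, where 9.18% of all genes fell: S100a8 by -3.88 ± 0.85 (adjusted p = 0.00453), S100a9 by -4.18 ± 0.87 (0.00272), Csf3r by -1.64 ± 0.31 (0.00109), Retnlg by -2.87 ± 0.68 (0.00781), G0s2 by -2.07 ± 0.55 (0.0201) and Ly6g by -2.50 ± 0.72 (0.0419). Clec4d was at 0.59 ± 0.30 (0.285). G0s2 and hepatocyte genes were both low in the combination mice, and the part of tissue makeup in its fall was not tested.

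**Figure D2:**
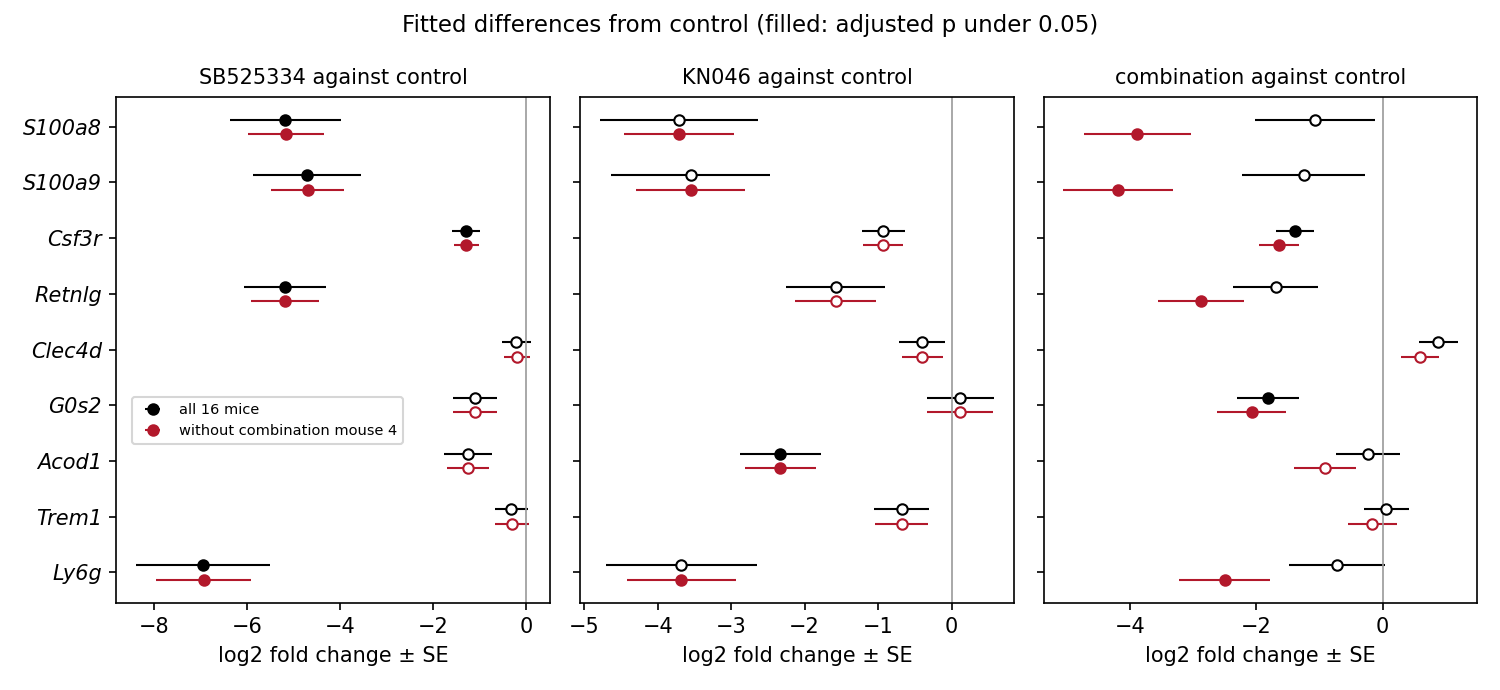
Fitted log2 fold change against control with its standard error (horizontal axis) for the 9 genes in 3 comparisons, with all 16 mice (black) and without combination mouse 4 (red). Filled points have an adjusted p under 0.05, and in the combination panel S100a8 and S100a9 move from -1.07 and -1.25 to -3.88 and -4.18.

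The combination was set against each drug alone. Against KN046, Clec4d (2.44-fold, log2 fold change 1.29 ± 0.31, adjusted p = 0.00677) and Acod1 (4.28-fold, 2.10 ± 0.55, 0.0117) rose, where 9.89% of all genes rose, and G0s2 fell 3.81-fold (-1.93 ± 0.49, 0.00967), where 14.5% fell. Mice did not overlap for Clec4d, higher as for 7.90% of all genes, and G0s2, lower as for 12.4%. Without combination mouse 4 Clec4d (0.99 ± 0.30, 0.0332) and G0s2 (-2.19 ± 0.56, 0.0123) passed and Acod1 did not (1.41 ± 0.51, 0.0643). Of all genes 6.22% then rose and 10.9% fell. G0s2 was at -1.29 (0.0554) without KN046 mouse 1. S100a8 (0.0342 and 0.0381) and Ly6g (0.033 and 0.0239) passed without combination mouse 1 or 3. S100a8 moved from 2.65 ± 1.06 to -0.16 ± 0.82 and S100a9 from 2.30 ± 1.05 to -0.63 ± 0.81 when combination mouse 4 was left out. With each library scaled to 10 pan-leukocyte genes, Clec4d did not pass (0.52, adjusted p = 0.134) and Csf3r did (-1.24, 2.9e-04). Under that scaling 8787 of 13968 tested genes fell and 125 rose, with a median of -0.72 over all genes, so these changes are not particular to the members.

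Against SB525334, Retnlg (log2 fold change 3.5 ± 0.91, adjusted p = 0.0365) and Ly6g (0.0325, at least 14.1-fold higher against 3 counts over the group) were higher in the combination, where 0.544% of all genes rose. DESeq2 called 4 members higher, where it called 4.19% of genes in either direction. Mice did not overlap for Clec4d, higher in the combination as for 2.43% of all genes. Neither Retnlg nor Ly6g passed without combination mouse 4, at 2.31 ± 0.85 (0.304) for Retnlg and 0.148 for Ly6g, and 0 of 9 members then passed by edgeR, with Retnlg, Clec4d and Ly6g at an unadjusted p of 0.0155, 0.0167 and 0.00581. Both calls were also lost without SB525334 mouse 1, 2 or 4 (adjusted p = 0.0615 to 0.131), Ly6g without SB525334 mouse 3 (0.0681), and Retnlg without combination mouse 2 (0.0549), KN046 mouse 4 (0.0521) or any 1 control mouse (0.0502 to 0.0511). S100a8 (6.36, adjusted p = 0.0195) and S100a9 (5.53, 0.0282) passed without SB525334 mouse 3, both also without combination mouse 3 (0.0196 and 0.046), S100a8 without combination mouse 1 (0.0325), and Clec4d without combination mouse 1 (0.0253) or 3 (0.0389). At an unadjusted p under 0.05 and with all mice, S100a8, S100a9, Retnlg, Clec4d and Ly6g were higher.

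The interaction compares the effect of SB525334 in mice given KN046 and in mice not given it. It was positive past the threshold for 5 of 9 members, where 1.73% of all genes were: S100a8 (7.83 ± 1.59 on the log2 scale, adjusted p = 0.00749), S100a9 (7.01 ± 1.56, 0.0141), Retnlg (5.08 ± 1.13, 0.0141), Acod1 (3.36 ± 0.76, 0.0157) and Ly6g (0.00589). For S100a8, SB525334 went with a log2 difference of -5.18 in mice without KN046 and of 2.65 in mice with it. For Acod1 the values were -1.26 and 2.10. Without combination mouse 4, S100a8 (5.0 ± 1.13, 0.0238), Acod1 (2.66 ± 0.68, 0.0457) and Ly6g (0.0126) passed, and S100a9 (4.06 ± 1.09, 0.06) and Retnlg (3.88 ± 1.01, 0.0519) did not. The interaction was then positive past the threshold for 0.909% of all genes. Clec4d (1.51 ± 0.44, 0.0633) passed without KN046 mouse 2 (0.0376) or combination mouse 1 (0.0381). The fitted value of Ly6g here depends on the prior count, since 4 of its mice in 1 group had no read. Mean CPM with SB525334 and KN046 alone was 0.765 and 2.13 for S100a8, against 27.8 in control mice. For Ly6g it was 0 and 0.0536, against 0.742. Such falls cannot add up on the log2 scale once reads run out, which favours a positive interaction for S100a8, S100a9, Retnlg and Ly6g. The test cannot tell this limit from an effect of 1 drug on the other.

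The share of S100a8 and S100a9 in the reads of the 9 members was higher in every control mouse than in every SB525334 and KN046 mouse, whereas the ranges of the 3 treated groups overlapped. It was 57.1% to 72.0% in control mice, 0.899% to 24.3% with SB525334, 13.5% to 30.6% with KN046, and 10.4%, 27.4%, 3.55% and 69.4% in combination mice 1 to 4. Wilson intervals were 68.0% to 70.8% for combination mouse 4 and 0.35% to 2.29% for SB525334 mouse 2, counting error only. Combination mouse 4 was thus within the control range, and SB525334 mouse 3 was the highest of its group. The ratio of S100a9 to S100a8 reads was 1.83 to 2.12 in control mice, 1.61 to 3.07 with KN046 and 1.46 to 1.72 with the combination, and 9.5, 2.6 and 1.22 in the 3 SB525334 mice in which S100a8 had reads.

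The members were set beside genes of the other stages of the neutrophil. Of 14 granule genes, 13 fell with SB525334 (median log2 difference -5.8) and 12 with KN046 (-4.44), and 6 with the combination (-2.05), where 9.22%, 2.40% and 9.74% of all genes fell. Without combination mouse 4, 14 fell with the combination (median -4.69), where 9.18% of all genes fell. Elane, a serine protease of primary granules, was 8.69 ± 0.594 CPM in control mice, 0.0328 ± 0.0219 with SB525334, 0.204 ± 0.116 with KN046 and 1.23 ± 2.14 in combination mice. Ltf (lactoferrin) was 32.2 ± 2.14, 0.128 ± 0.0601, 0.46 ± 0.278 and 7.67 ± 13.3 CPM, and Mpo (myeloperoxidase) 10.8 ± 1.5, 0.199 ± 0.232, 0.256 ± 0.167 and 1.62 ± 2.48. All 14 were highest of the combination mice in mouse 4, and without it Elane, Ltf and Mpo were 0.157 ± 0.184, 1.06 ± 0.9 and 0.381 ± 0.205 CPM (n = 3). The interaction was positive past the threshold for 12, where 1.73% of all genes were. Without that mouse it was positive past the threshold for 8, where 0.909% of all genes were, and negative past it for Lcn2. With the combination Lcn2, also a hepatocyte acute-phase gene, fell by 4.62 on the log2 scale (adjusted p = 4.7e-04), and by 7.27 without mouse 4 (4.4e-07).

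Of 30 other mature neutrophil genes, 29 were in the tables and 23 were tested, and 8 fell with SB525334 (median log2 difference of the 23 -1.39), 1 with KN046 (-0.53) and 4 with the combination (-0.9), Wfdc17, Wfdc21, Fpr1 and Lrg1. Of all genes 9.22%, 2.40% and 9.74% fell in these comparisons. When combination mouse 4 was left out, 7 fell with the combination (median -1.22), Wfdc17, Wfdc21, Fpr1 and Lrg1 among them, and 10 with SB525334. Of all genes 9.18% and 9.11% then fell. With SB525334, Fpr1, a receptor for formylated peptides, fell by 2.51 on the log2 scale (adjusted p = 0.0152), and the secreted Wfdc21 and Lrg1 by 3.29 (2.1e-04) and 2.56 (3.3e-04). Il1b fell by 2.19 with KN046 (0.0458), a call lost without combination mouse 4 (adjusted p = 0.0584). Mmp9, the gelatinase of tertiary granules, was 56.7 ± 3.52 CPM in control mice and 69.4 ± 13.3 with SB525334 (adjusted p = 0.619), and Ifitm1 was higher with the combination by 0.76 (0.00325). Wfdc21 and Lrg1, which are also made by hepatocytes, were lowest in the combination mice, as was the hepatocyte list.

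**Figure D3:**
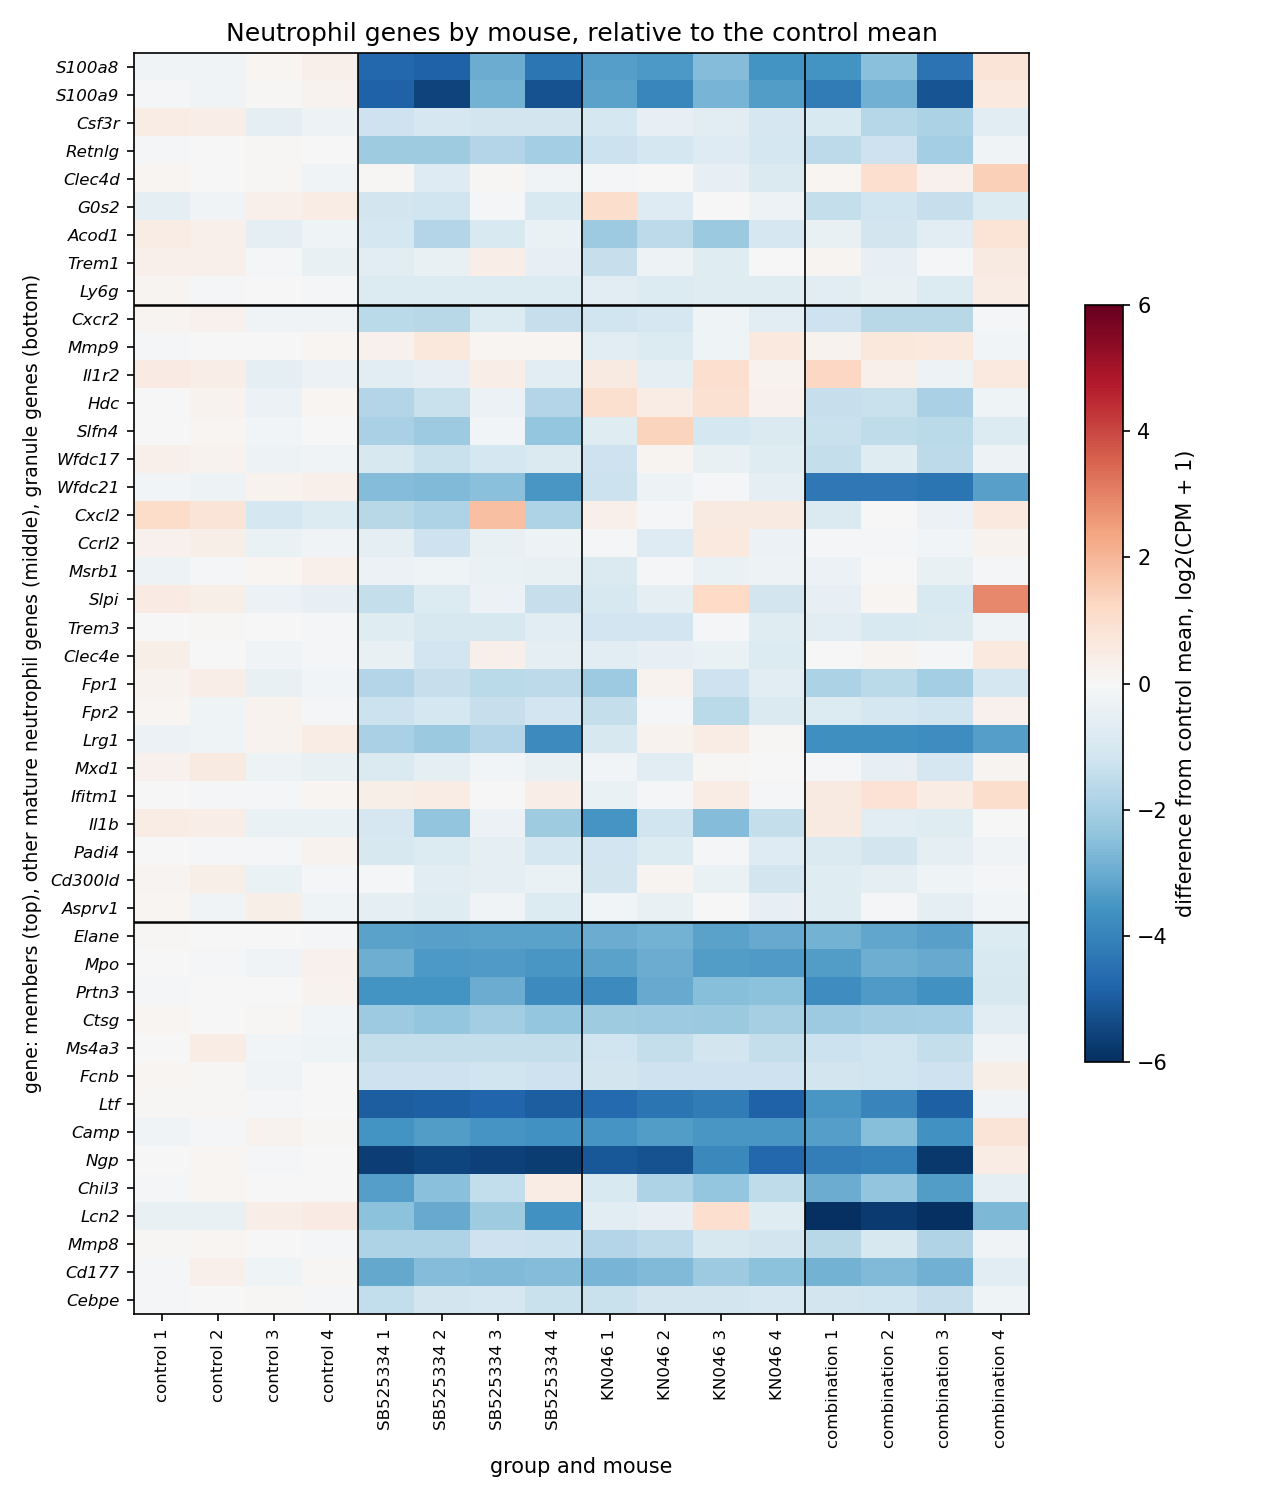
Difference of log2(CPM + 1) from the control mean for the 9 members, other mature neutrophil genes and 14 granule genes (rows) in each of 16 mice (columns), blue lower and red higher. S100a8, S100a9 and most granule genes are blue in all SB525334 and KN046 mice and in combination mice 1 to 3, and near control in combination mouse 4.

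Ligands and receptors that call neutrophils into tissue were measured in the same mice. Of 14 tested genes of recruitment and growth, 4 fell with SB525334 (median of the 14 -1.3), where 9.22% of all genes fell: Cxcl12, the chemokine that retains neutrophils in marrow (-1.83, adjusted p = 4.3e-06), Cxcl1, a ligand of CXCR2 (-1.86, 0.0162), Ppbp (-2.69, 0.0303) and Il1a (-1.90, 0.0456). Without combination mouse 4 Il1a did not pass (0.0597) and Cxcr2, a receptor of CXCL1, did (-3.02, 0.0241). Cxcr4, the receptor of CXCL12, fell by 0.79 with KN046 (0.0307), along with Il1b, where 2.40% of all genes fell. With the combination 1 passed, Cxcl12 (-2.74, 1.9e-08), where 9.74% of all genes fell. The medians were -0.41 with KN046 and -0.42 with the combination. With combination mouse 4 left out, 2 passed for the combination against control, Cxcl12 (-2.87, 1.0e-07) and Cxcr2, with a median of -0.69, where 9.18% of all genes fell. Csf3, the ligand of CSF3R, was at 0.158 ± 0.0658 CPM in control mice and 0.0207 ± 0.024 with SB525334, too low to be tested, and is named here after its values were seen. Of 21 genes of calprotectin and TREM-1 signaling, 2 fell with SB525334 (median of the 21 -0.22), near the 9.22% of all genes that fell: Pglyrp1 (-1.91, 0.0126), a granule protein that binds TREM-1, and Treml4 (-1.87, 0.023). Pglyrp1 and Fcer1g fell with KN046 (-2.02, 0.035 and -0.59, 0.046), and Treml4 with the combination (-2.07, 0.011), where 2.40% and 9.74% of all genes fell. Fcer1g did not pass with KN046 once combination mouse 4 was left out (0.0523), and Pglyrp1 passed with the combination beside Treml4 (-2.29, 0.0159).

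Markers of other cells were summed for the same mice. The 10 pan-leukocyte genes summed to 702.2 to 875.7 CPM in control mice, 579.7 to 728.0 with SB525334, 355.6 to 624.3 with KN046 and 649.2 to 976.8 with the combination, and 6 of 10 fell with KN046, where 2.40% of all genes fell. The 9 members summed to 120.8 to 134.1 CPM in control mice, 17.7 to 38.3 with SB525334, 29.0 to 33.9 with KN046 and 23.0 to 185.1 with the combination. Monocyte and macrophage genes, a list with Apoe, which hepatocytes also make, were 3671.2 to 4731.8 CPM in control mice. The sums were 1933.0 to 3045.9 CPM in SB525334 mice, 2233.0 to 4761.2 in KN046 mice and 1625.8 to 2118.9 in combination mice. Apoe was most of the control sum, at a mean of 3080.0 CPM. Its mean was 1157.7 CPM in SB525334 mice, 2509.3 in KN046 mice and 726.3 in combination mice. The lower sums thus do not show a fall of the whole list. Against control, the median log2 difference of the 15 genes was 0.06 for SB525334, -0.37 for KN046 and -0.05 for the combination. Of the 15 genes, 3, 1 and 2 fell by edgeR, with Apoe among the 3 and the 2, where 9.22%, 2.40% and 9.74% of all genes fell. In combination mouse 4 the B cell list summed to 54.6 CPM against 2.07 to 20.3 in the other 3, T cell genes to 75.8 against 35.4 to 60.5, and erythroid genes to 261.7 against 8.13 to 208.5. The part of these cells in the levels of the members in that mouse was not tested.

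**Figure D4:**
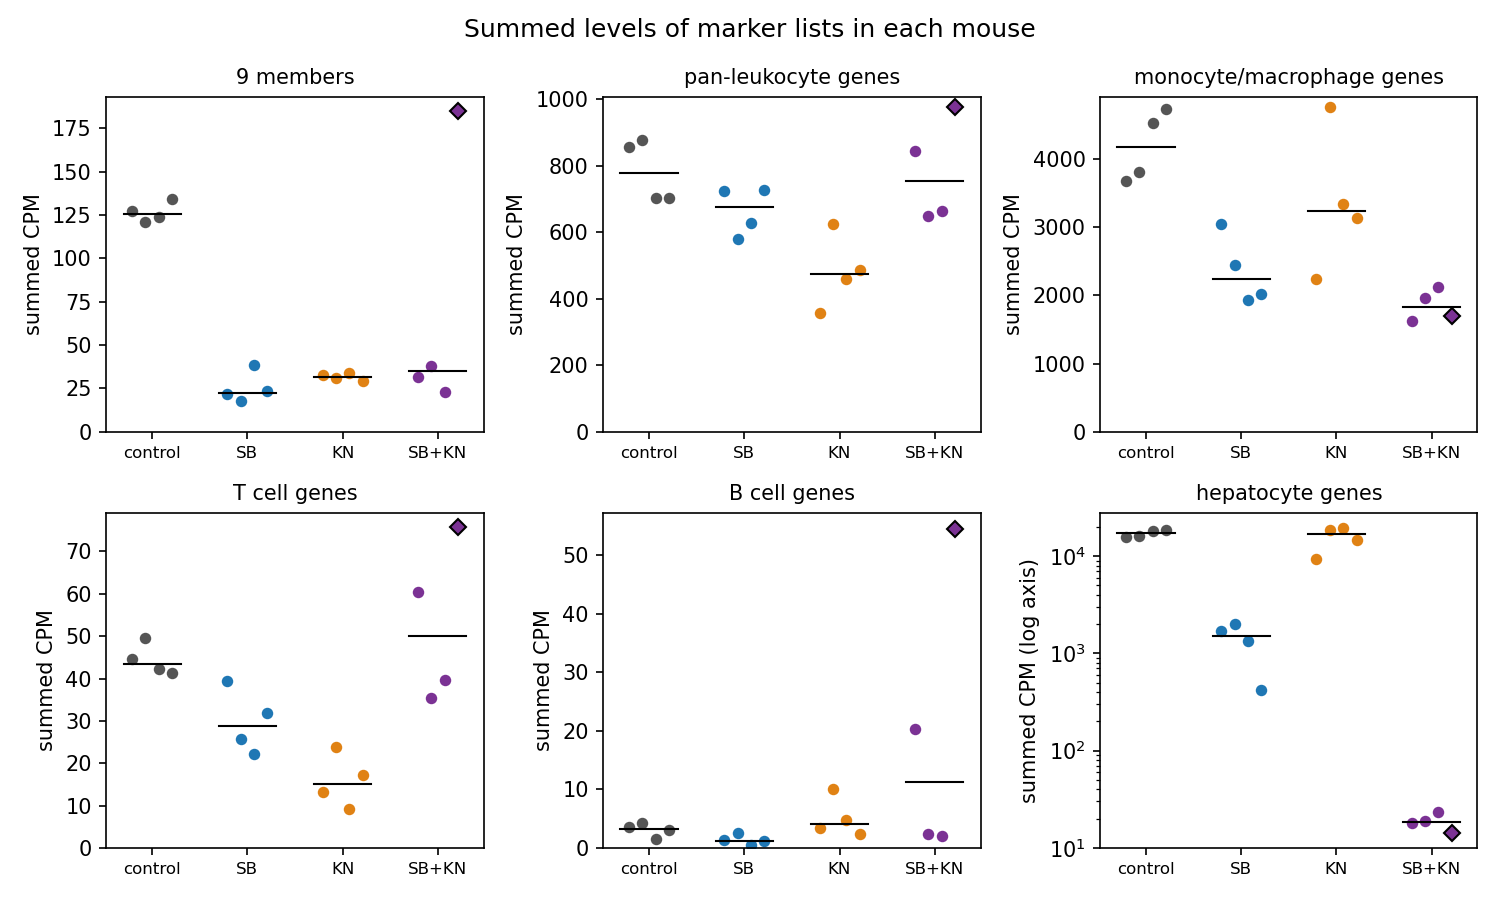
Summed CPM of 6 lists in each mouse by group, with the group median as a line (hepatocyte panel on a log axis). Combination mouse 4 (diamond) is highest of all mice for the members (185.1 CPM), pan-leukocyte, T cell and B cell lists, and lowest for hepatocyte genes (14.3).

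The genes most like the members were sought by Pearson's r between each tested gene's log2(CPM + 1) and the mean standardized level of the 9 members, over 16 mice, both centred on the group means. The 10 highest were Ltf (0.92), Fcnb (0.906), Elane (0.901), Ngp (0.901), Ctsg (0.895), Camp (0.884), Cd24a (0.878), Cebpe (0.875), Cd177 (0.872) and Ifitm6 (0.872). Of these, 8 are granule genes of the list above, which shares its libraries and combination mouse 4 with the members. Without centring Ngp was highest (0.958). Among the members, S100a8 (0.949), S100a9 (0.947), Retnlg (0.925) and Ly6g (0.905) followed the mean level most closely within groups and G0s2 least (0.314). Each member is itself part of that mean, so these values are raised by construction. They cannot be set against those of the other genes.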

How the data were processed

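RNA was sequenced from liver metastasis tissue of 16 mice, 4 per group, each labelled as its own sample. The authors deposited raw counts per gene, which were used here. The submitters' processing notes name Cutadapt 2.7, HISAT2 2.2.1, HTSeq 2.0.4 and the build GRCm39. Their normalized values were not used. Settings for strand and for reads with several alignments are not given in the sources used here. Identifiers of 21770 of 21959 listed genes matched GENCODE M39.

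Differences were tested by edgeR 4.0.16 under R 4.3.3 (genes kept by filterByExpr at 10 counts, TMM factors, 1 quasi-likelihood fit over 16 mice and 4 groups with 12 residual degrees of freedom, Benjamini-Hochberg adjustment over 13968 genes, threshold 0.05). The SE is the log2 fold change divided by the root of the F statistic. The biological coefficient of variation was 20.1%. With totals of 18368994 to 23877131 counts, a gene with 0 reads in a group was bounded at 3 counts over the group, and intervals cover counting error only. On simulated data with 200 genes changed 4-fold, the SB525334 comparison called 94.9% of the 198 that passed the filter among 13864 tested, and 12 unchanged genes.

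The members and all gene lists were chosen with earlier results of these data known. All 9 members were named. From the other lists, called genes (up to 4 with the lowest adjusted p per comparison) and the 3 with the highest mean CPM could be named, except 1 that is not reported here by name and enters only counts, medians and sums. Likeness used log2(CPM + 1). Comparisons against control share the control mice. P-values measure the spread between these mice. Alternatives were DESeq2 1.42.0, the study's thresholds (unadjusted p and a fold change over 2), other scalings and filters, the 8 mice of a comparison alone, the replicate number as a block, the similar control pairs summed, and each mouse left out. The gene lists without combination mouse 4 were added after the data were seen.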

Additional observations from a re-analysis of the deposited data

Results flagged for a closer look

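In 35 groups of 4 mice, 1 mouse lay far from the other 3 by Dixon's test in 7, where chance would give about 1.75 if the groups were independent. They are not, since the same mice and genes that vary together enter many of them. All 7 came from combination mouse 4 or SB525334 mouse 3, so the count cannot show an excess over chance. Combination mouse 4 lay above the other 3 for S100a8 (47.2 CPM) and S100a9 (81.3 CPM). SB525334 mouse 3 lay above the other 3 for S100a8 (2.58 CPM), S100a9 (6.71 CPM), Retnlg (0.301 CPM), G0s2 (3.53 CPM) and Trem1 (8.31 CPM). The effect of SB525334 differed between mice with and without KN046 by the interaction test for S100a8 (7.83 on the log2 scale), S100a9 (7.01), Retnlg (5.08), Acod1 (3.36) and Ly6g (9.91, a value that depends on the prior count because all SB525334 mice had 0 reads). S100a9 and Retnlg did not pass this test without combination mouse 4. For S100a8, S100a9, Retnlg and Ly6g, levels near 0 reads with 1 drug alone favour a positive value.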

How the results depend on the processing

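With SB525334 against control, edgeR called 5 members when any 1 mouse was left out, and the other alternatives called 4 to 7, all lower. With KN046 against control, members called were 5 with DESeq2, 5 with the study's thresholds, 4 with pan-leukocyte scaling, 4 with the 8 mice alone, 0 with the control pairs summed, and 0 to 4 with 1 mouse left out. With the combination against control, 3 were called with DESeq2, among them Clec4d, higher (0.89, adjusted p = 0.0358), 3 with the study's thresholds, 3 with pan-leukocyte scaling, 1 with the control pairs summed and 1 to 6 with 1 mouse left out. Against KN046, the combination gave 4 with DESeq2, 5 with the study's thresholds and 2 to 5 with 1 mouse left out. Against SB525334, it gave 4 with DESeq2, 6 with the study's thresholds, 4 with pan-leukocyte scaling, 1 with a mean CPM of at least 1, 0 with the 8 mice alone (where Retnlg and Ly6g did not pass the low-count filter), 0 with the control pairs summed, and 0 to 5 with 1 mouse left out. The interaction gave 6 with DESeq2, 7 with the study's thresholds, 6 with pan-leukocyte scaling (G0s2 lower, -2.02, 0.015), 2 with the control pairs summed and 3 to 6 with 1 mouse left out. With pan-leukocyte scaling 9271 of all genes were lower and 145 higher in the interaction. The interaction could not be fitted with 8 mice alone. The cause of the other changes was not tested. Over all genes, KN046 against control gave 559 calls by edgeR, 1250 by DESeq2, 255 with total-count scaling, 75 with the 8 mice alone and 0 with the control pairs summed. DESeq2 and the study's thresholds gave 1600 and 1576 calls with SB525334 and 1880 and 1677 with the combination, in either direction. They gave 3990 and 1920 for the combination against KN046, 678 and 952 against SB525334, and 957 and 1254 for the interaction.

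The samples share only a replicate number, and deviations of same-numbered mice correlated at -0.483 to 0.527, with no common sign. Correlations between mice with different numbers were not computed, so these values cannot decide whether the numbers pair the mice. With the replicate number as a block the combination against SB525334 gave 0 members instead of 2, and no other count of members changed.

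Pan-leukocyte scaling gave 136 lower and 9377 higher calls with KN046, against 335 and 224 with TMM, and 8787 lower and 125 higher for the combination against KN046, against 2025 and 1381. It moved the median of all genes to 0.30 with SB525334, 0.77 with KN046, -0.72 for the combination against KN046, -0.21 for the combination against SB525334 and -1.01 for the interaction. It turned the direction of Clec4d (0.07 with SB525334, 0.40 with KN046), Trem1 (0.02 and 0.05) and Csf3r in the interaction (-0.29). Leaving out 1 mouse turned uncalled directions: G0s2 with KN046 (-0.51 to 0.39), Acod1 (-0.91 to 0.03) and Trem1 (-0.16 to 0.24) with the combination, S100a8 (-0.16 to 3.06), S100a9 (-0.63 to 2.72) and Retnlg (-1.3 to 0.29) for the combination against KN046, and Csf3r for the combination against SB525334 (-0.36 to 0.11).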
